A study of Mus musculus with 2 samples.

Results

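The 4 neutrophil-attracting chemokine genes Cxcl1, Cxcl2, Cxcl3 and Cxcl5 and the gene of their shared receptor, Cxcr2, were followed through dissociated mouse mammary tumours. They were taken as the rows of both count matrices that carry these 5 symbols, 5 of 55357 genes, and all 5 were found once: Cxcl1 as ENSMUSG00000029380, Cxcl2 as ENSMUSG00000058427, Cxcl3 as ENSMUSG00000029379, Cxcl5 as ENSMUSG00000029371 and Cxcr2 as ENSMUSG00000026180. The tumours were grown from 4T1 cells, a mouse line used as a model of triple-negative breast cancer, in BALB/c mice. One group of mice was given AptCD4-LNT as 3 successive doses of 5000000, 4000000 and 3000000 cells, 3 days apart, and the other group, labelled Untreated, received phosphate-buffered saline. Tumours were taken at 9 days, 3 were mixed in each group, and each mixture became 1 droplet-based single-cell library, so the 2 libraries have no replicates and no difference below was tested.

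CXCR2 is a G protein-coupled receptor that is best known from neutrophils, where it drives release from the bone marrow and migration along a gradient of its ligands. The ligands are small secreted CXC chemokines that inflammatory signals such as interleukin 1, tumour necrosis factor and interleukin 17 induce, through NF-kB at the promoter and through slower decay of the mRNA. Tumour cells, fibroblasts and myeloid cells can all make them, and activated neutrophils themselves are a known source of Cxcl2. Neutrophils that have been exposed to ligand or that age in tissue are known to carry less CXCR2.

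The promoters of Cxcl1, Cxcl2 and Cxcl3 resemble one another, and the sequences are shown because the NF-kB arm is compared with the ligands further on. The RefSeq promoter table (GRCm38.p6) held 4 of the 5 genes, and Cxcl5 had no entry. Each line gives the 100 bases before the annotated start on the plus strand, 5′ to 3′, at chr5:90891145-90891244 for Cxcl1, chr5:90903799-90903898 for Cxcl2, chr5:90786001-90786100 for Cxcl3 and chr1:74153894-74153993 for Cxcr2. Capitals mark GGGAATTTCCC, the longest run of bases (11) common to the 3 ligand promoters shown, which holds an NF-kB type site, and the TATA-type box ATAAAAG.
Cxcl1: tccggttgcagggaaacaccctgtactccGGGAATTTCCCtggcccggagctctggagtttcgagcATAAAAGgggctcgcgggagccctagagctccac
Cxcl2: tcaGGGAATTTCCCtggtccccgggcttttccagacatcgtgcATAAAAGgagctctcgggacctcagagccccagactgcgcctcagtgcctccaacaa
Cxcl3: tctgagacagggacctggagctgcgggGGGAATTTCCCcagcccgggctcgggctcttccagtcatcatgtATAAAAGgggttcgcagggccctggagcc
Cxcr2: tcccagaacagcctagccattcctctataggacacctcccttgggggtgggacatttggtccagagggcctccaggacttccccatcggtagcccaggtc
GGGAATTTCCC began 71 bases before the start in Cxcl1, 97 in Cxcl2 and 73 in Cxcl3, and ATAAAAG began 34, 57 and 29 bases before it, so the motifs did not overlap. Neither motif was found on either strand of the 250 bases searched for Cxcr2. Searched on both strands of the 250 bases of all 32851 promoters in the table, GGGAATTTCCC was present in 14 (0.0426%) and ATAAAAG in 1588 (4.83%). Both were present in 3, namely Cxcl1, Cxcl2 and Cxcl3, and since the run was read from these promoters that count is a description. No gene of the pathway lists used further on was among the other 11. In the annotation Cxcl5, Ppbp, Pf4, Cxcl3, Cxcl15, Cxcl1 and Cxcl2 lie in a row of 7 genes on chromosome 5. Cxcl2 and Cxcl3 transcripts of the GENCODE M21 annotation shared 61 stretches of 50 bases, 3.28% of those of Cxcl2 and 6.31% of those of Cxcl3, and reads from such stretches could not be assigned to 1 of the 2 genes. No other pair of the 5 genes shared any.

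Both libraries are labelled as tumour cells, but markers of immune, stromal and vascular cells were present in each. The AptCD4-LNT library held 8931 barcodes and 98968100 unique molecular identifiers (UMIs, which count captured mRNA molecules), and the Untreated library 20040 barcodes and 131295224 UMIs. Median depth was 8612 UMIs per barcode against 4640.5, and 8627 and 18216 cells were kept. The 2 libraries shared 42 barcodes (0.470% and 0.210% of each), and leaving those out moved none of the results. Levels are a gene's UMIs in every 1000000 UMIs of a class in a library (CPM), log2 ratios are AptCD4-LNT over Untreated, and the ranges in brackets are exact 95% intervals that cover counting error only. Classes were named from marker genes. They were neutrophil-like (2129 and 2977 cells), macrophage-like (894 and 1283), monocyte-like (505 and 573), epithelial-like, the class that 4T1 cells belong to (3385 and 7535), fibroblast-like (632 and 260), pericyte-like (51 and 95), endothelial-like (58 and 174) and T/NK-like cells (155 and 587). Of 24 clusters, 5 had leading genes of another class or low depth and stayed unnamed, among them cluster 2, led by Ibsp (464 and 2259 cells), cluster 4, led by Grem1 (215 and 472), and cluster 21, led by Bglap and Adamdec1 (43 and 1879). Cluster 2 scored highest as epithelial, and its 8 summed epithelial markers were at 93.2% and 85.4% of the epithelial-like level. It stayed unnamed because Hbb-bs, an erythroid marker, was among its leading genes, so its cells are not in the epithelial-like values. Because dissociation and capture set the mix of cells, fewer cells of a type and less RNA per cell cannot be told apart in whole-library levels.

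Over all cells Cxcl1 and Cxcr2 were higher and Cxcl3 was lower in the AptCD4-LNT library. Cxcl1 stood at 1254 CPM against 585, 2.14-fold higher (2.12 to 2.17). Cxcr2 stood at 26.4 against 9.33 CPM, 2.83-fold higher (2.63 to 3.04). Cxcl3 stood at 31.2 against 207 CPM, 6.64-fold lower (6.39 to 6.90). Cxcl2, at 895 against 1293 CPM, and Cxcl5, at 105 against 80.9, differed by less than 1.5-fold, the size used here to call a gene higher or lower. Thus 2 of the 5 genes were called higher and 1 lower, where 14.9% of the 19773 genes with 20 or more UMIs were higher and 6.95% were lower. The median log2 ratio of the 5 genes was 0.38, beside 0.08 for all genes. For Cxcl2 no direction is given, because its log2 ratio of -0.53 became 0.63 once each cell was thinned to 1000 UMIs, a step that left out 2002 of the 2977 Untreated neutrophil-like cells.

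By the cells that held most of their UMIs, Cxcl1 and Cxcl5 were tumour and stromal ligands and Cxcl2 and Cxcl3 myeloid ligands. Epithelial-like cells held 81.4% of all Cxcl1 UMIs in the AptCD4-LNT and 78.3% in the Untreated library. They held 69.02% and 92.1% of the Cxcl5 UMIs. Neutrophil-like cells held 60.4% and 53.0% of Cxcl2. For Cxcl3 the share of neutrophil-like cells was 66.2% and 40.7%, that of macrophage-like cells was 1.95% and 40.5%, and cluster 21 held 0 of 2969 UMIs and 9.96%. The split was not clean for Cxcl3, since epithelial-like cells held 18.6% and 5.77% of its UMIs and fibroblast-like cells 8.62% and 0.353%. Neutrophil-like cells also held 90.4% and 81.7% of the receptor's UMIs, so that the main source of Cxcl2 was also the class that carried Cxcr2.

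**Figure D1:**
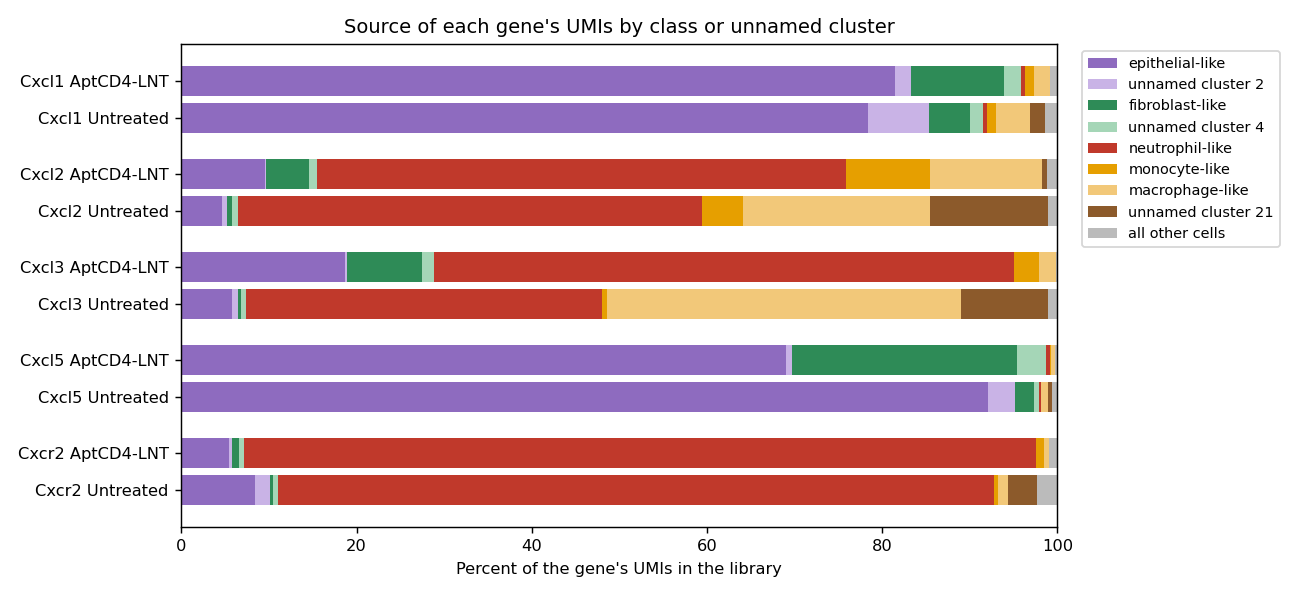
Horizontal bars give the percent of each gene's UMIs held by each class or unnamed cluster in each library. Cxcl1 and Cxcl5 UMIs lie mostly in epithelial-like cells, Cxcl2 and Cxcr2 UMIs mostly in neutrophil-like cells, and the macrophage-like part of Cxcl3 is 40.5% in the Untreated and 1.95% in the AptCD4-LNT library.

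Among the ligands, Cxcl1, also called KC or Gro-alpha, was above 100 CPM in all 8 classes compared. Its level was highest in fibroblast-like cells, at 1624 CPM in the AptCD4-LNT and 1524 CPM in the Untreated library. Epithelial-like cells followed in the AptCD4-LNT library at 1475 CPM and pericyte-like cells at 1183. In the Untreated library the next were pericyte-like cells at 994 CPM, then epithelial-like cells at 708, macrophage-like cells at 605 and monocyte-like cells at 602, and these last 2 did not differ beyond their intervals. The lowest levels of the 8 classes were in neutrophil-like cells, at 162 and 103 CPM. That was 11.0% and 14.6% of the epithelial-like level, while the summed level of all 8 epithelial markers in neutrophil-like cells was 5.23% and 5.40% of theirs, with no marker at 0. In T/NK-like cells, which are not known as a source, Cxcl1 was at 22.5% and 23.6% of the epithelial-like level beside 17.3% and 19.99% for the markers, of which Cldn7 was at 0 in the AptCD4-LNT library. How much of the low Cxcl1 levels came from free RNA of other cells was not tested.

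Most of the gap in Cxcl1 between the libraries lay in epithelial-like cells, where the level was 2.08-fold higher (2.06 to 2.10), 1475 against 708 CPM. It was higher in all 7 epithelial-like clusters, with log2 ratios from 0.25 in cluster 19, led by interferon-induced Ifit genes, to 1.13 in cluster 0, led by mitotic genes. In cluster 2, unnamed but epithelial by score, Cxcl1 was 404 against 340 CPM, 1.19-fold higher. The highest Cxcl1 levels of the epithelial-like clusters were in cluster 12, led by Il23a and Angptl7, at 2392 against 1458 CPM, and in cluster 14, led by Lgals7 and H19, at 2088 against 1081. Cluster 14 held 33.1% of AptCD4-LNT and 5.43% of Untreated epithelial-like cells, so it may be partly that library rather than a cell state. With the Untreated clusters weighted as in the AptCD4-LNT library the log2 ratio was 0.83 in place of 1.06. A Cxcl1 UMI was found in 89.9% of epithelial-like cells against 67.7%, and in 56.8% against 35.1% after thinning to 1000 UMIs, beside 8.84% and 9.77% in thinned T/NK-like cells. The median epithelial-like cell held 19 Cxcl1 UMIs against 2, with median depths of 17906 and 7773 UMIs. The 10% of epithelial-like cells with the most Cxcl1 held 34.3% of the UMIs in the AptCD4-LNT library and 50.3% in the Untreated library.

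Fibroblast-like cells, which were cluster 3 alone, did not share that difference. Their Cxcl1 log2 ratio was 0.09 (0.03 to 0.15). Cluster 4 was led by Grem1 and other genes of contractile fibroblasts and smooth muscle. It scored highest as fibroblast but stayed unnamed, so its 215 and 472 cells were not counted beside the 632 and 260 of cluster 3. In cluster 4 Cxcl1 was 2.36-fold higher (2.19 to 2.54), at 719 against 305 CPM, so the small ratio holds for cluster 3 only. Endothelial-like cells had 312 against 138 CPM of Cxcl1. Over the 18 clusters with 50 or more cells in each library, Cxcl1 was higher in 17, in 9 of them by 1.5-fold or more, and lower within counting error in cluster 17.

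Cxcl5, also called LIX, was held mostly by epithelial-like cells. Fibroblast-like cells came next in the AptCD4-LNT library. In the Untreated library cluster 2, unnamed but epithelial by score, came next (3.12%). Cxcl5 had the largest ratio of the 5 genes in fibroblast-like cells. In fibroblast-like cells it stood at 327 CPM (314 to 340) against 99.1 (85.7 to 114), 3.30-fold higher (2.86 to 3.83). In cluster 4 it was 7.10-fold higher (5.21 to 9.89), at 103 against 14.5 CPM. A Cxcl5 UMI was found in 37.0% of fibroblast-like cells against 20.4%, and in 15.6% against 7.34% after thinning to 1000 UMIs. Few cells held most of it, since the highest 10% of fibroblast-like cells carried 76.5% of its UMIs in the AptCD4-LNT and 85.35% in the Untreated library. The 8 summed epithelial markers, none at 0, in fibroblast-like cells were at 2.89% of the epithelial-like level against 11.7%, and the part of epithelial RNA in these Cxcl5 levels was not tested. Fibroblast-like cells were also 7.33% of the cells against 1.43%, and they held 25.7% of all Cxcl5 UMIs against 2.18%.

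In epithelial-like cells Cxcl5 was nearly level, at 105 (102 to 107) against 115 (113 to 118) CPM, a log2 ratio of -0.13 (-0.18 to -0.09). Inside the clusters it pointed both ways. It was higher in clusters 10 and 13, at 219 against 147.5 and 218 against 137 CPM, and within counting error in clusters 1 and 12, at 34.5 against 39.5 and 231 against 236 CPM. It was lower in cluster 0, at 24.0 against 48.3 CPM, in cluster 14, at 60.7 against 108, and in cluster 19, at 71.7 against 217. Cxcl5 was also held by few cells, the highest 10% of epithelial-like cells carrying 81.2% and 82.7% of its UMIs. In the classes compared other than epithelial-like, fibroblast-like and pericyte-like cells its level was at most 18.5 CPM.

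**Figure D2:**
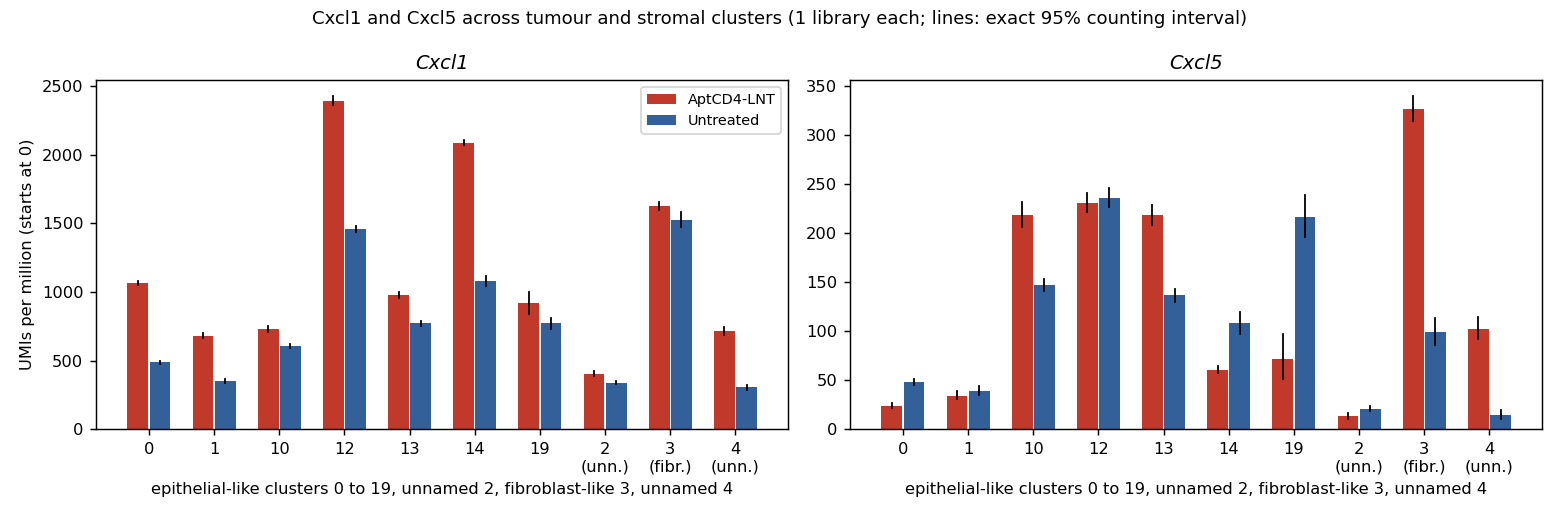
Bars give Cxcl1 (left) and Cxcl5 (right) in CPM for the 7 epithelial-like clusters, unnamed clusters 2 and 4 and fibroblast-like cluster 3, with exact 95% counting intervals. Cxcl1 is higher in the AptCD4-LNT library in each cluster shown, while Cxcl5 is higher in fibroblast-like cells (327 against 99.1) and points both ways among epithelial-like clusters.

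In epithelial-like cells 2 of the 5 genes, Cxcl1 and Cxcr2, were called higher and 1, Cxcl3, lower, where 10.5% of 17004 genes were higher and 6.77% lower, and the median log2 ratio was 0.40 beside 0.05 for all genes. The receptor's level there was 2.07 against 1.21 CPM, on 136 and 88 UMIs, or 0.295% and 0.416% of that of neutrophil-like cells. The 14 neutrophil markers together stood at 0.125% and 0.180% of their neutrophil-like level in the same cells. In fibroblast-like cells 1 gene, Cxcl5, was called higher and 0 lower, against 13.9% and 11.8% of 11924 genes, and the median was 0.35 beside 0.03. In pericyte-like cells 0 of 4 measured genes were higher and 2, Cxcl3 on 1 and 65 UMIs and Cxcl5 on 14 and 26, lower, against 18.4% and 14.1% of all genes. The Cxcl5 interval there spanned 0 on the log2 scale (-1.80 to 0.24). In endothelial-like cells 1 of 3 was higher, Cxcl1, and 1 lower, Cxcl3 on 1 and 22 UMIs, against 9.67% and 11.7%.

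Cxcl2, or MIP-2, was the ligand of the myeloid cells. Its level was highest in neutrophil-like cells in both libraries, at 15893 CPM (15756 to 16031) in the AptCD4-LNT and 26221 CPM (26036 to 26407) in the Untreated library. Macrophage-like cells at 7357 CPM and monocyte-like cells at 5639 followed in the Untreated library, in the reverse order of the AptCD4-LNT library, where they stood at 2065 and 4933. The levels of epithelial-like cells were 123 and 93.1 CPM. A Cxcl2 UMI was found in 90.8% and 94.0% of neutrophil-like cells, and in 19.4% and 21.8% of T/NK-like cells. The median neutrophil-like cell held 18 Cxcl2 UMIs in both libraries, at a median depth of 1351 UMIs in the AptCD4-LNT and 809 in the Untreated library.

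As CPM, Cxcl2 was 1.65-fold lower (1.63 to 1.67) in the neutrophil-like cells of the AptCD4-LNT library. Different clusters held most of the class in the 2 libraries. Cluster 6, led by Hdc, Fpr1 and Csf3r, held 76.1% of AptCD4-LNT and 8.83% of Untreated neutrophil-like cells. Cluster 7, led by Stfa2, Hcar2 and Ccl3, held 23.2% and 89.6%, so clusters 6 and 7 may each be partly a library rather than a cell state. Cluster 8, led by the granule genes Camp, Ngp and Ltf of immature neutrophils, held 0.705% and 1.58%. Cxcl2 was lower in each of them, at 16348 against 19829 CPM in cluster 6, 15473 against 28013 in cluster 7 and 4258 against 5658 in cluster 8. At the AptCD4-LNT mix of clusters the log2 ratio was -0.41 in place of -0.72, and with no doublets removed before clustering it was 0.07, so the direction of Cxcl2 in neutrophil-like cells depended on that step.

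Cxcl3, a close relative of Cxcl2, was lower in the AptCD4-LNT library nearly everywhere. In neutrophil-like cells it was 5.31-fold lower (5.06 to 5.58), at 608 against 3229 CPM on 1965 against 9463 UMIs. A Cxcl3 UMI was found in 17.2% of neutrophil-like cells against 39.3%, and in 11.2% against 34.6% after thinning to 500 UMIs, which kept every cell. The T/NK-like cells had 1.29% against 6.99% unthinned. It was lower in cluster 6, at 549.5 against 1155 CPM, in cluster 7, at 888 against 3588, and in cluster 8, at 249 against 985. The cluster 8 levels were on 19 UMIs in 3 of 15 cells and 124 UMIs in 14 of 47. Weighted to the AptCD4-LNT mix of clusters, the log2 ratio was -1.42 in place of -2.41. Cxcl3 was also held by fewer cells than Cxcl2, since the highest 10% of neutrophil-like cells carried 89.7% and 63.7% of Cxcl3 and 30.9% and 34.5% of Cxcl2 UMIs.

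The gap was widest in macrophage-like cells. There Cxcl3 stood at 11.0 CPM (8.35 to 14.2) in the AptCD4-LNT library, on 58 UMIs, and at 2235 CPM (2190 to 2281) in the Untreated library, on 9406 UMIs. It was 203-fold lower (157 to 268), and a UMI was found in 2.57% of cells against 45.1%. In the AptCD4-LNT library 1 cell held 21 of the 58 UMIs, an uneven spread over cells that the interval does not cover. Nearly all of the Untreated UMIs, 9267, lay in cluster 18, led by Mmp12, Ccl24 and Arg1. That cluster held 76.5% of the Untreated and 3.69% of the AptCD4-LNT macrophage-like cells, so it may be partly that library. The 33 AptCD4-LNT cells of cluster 18 had 174 CPM of Cxcl3 against 2904, on 27 UMIs that lay in 3 cells. In cluster 16, led by Cd163 and Lyve1, which are known from resident macrophages, the levels were 17.96 and 209.6 CPM. In cluster 9, led by Ms4a7 and Cd72, they were 3.55 and 13.2 CPM, on 15 and 5 UMIs. Weighted to the AptCD4-LNT mix of clusters Cxcl3 had a log2 ratio of -3.58 in place of -7.67. Neutrophil markers were lower too, the 14 together standing at 0.467% of the neutrophil-like level in AptCD4-LNT and 1.5% in Untreated macrophage-like cells, none at 0. Cxcl3 in the same cells was at 1.81% and 69.2% of its neutrophil-like level. The part of neutrophil RNA in these Cxcl3 levels was not tested.

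Unnamed cluster 21 scored highest as macrophage (6.81), with 9 macrophage markers detected. Its leading genes were, in order, Bglap, Bglap2, Adamdec1, Clec4n, Mgl2, Pf4, Trf, Bcl2a1a, Dcstamp and Arg1. It stayed unnamed because Dcstamp is on the osteoclast marker list and no macrophage marker was among these genes. It gave 0 Cxcl3 UMIs over 43 AptCD4-LNT cells and 2314 over 1879 Untreated cells, at least 10.7-fold lower against a floor of 3 counts. Lower Cxcl3 was also seen in monocyte-like cells, at 51.5 against 95.9 CPM, and in epithelial-like cells, at 8.41 against 18.5. In fibroblast-like cells it was 32.6 against 41.0 CPM, a log2 ratio of -0.33 (-0.69 to 0.05). In T/NK-like cells it was 3.11 against 56.6 CPM, on 2 and 92 UMIs. Of the 18 clusters with 50 or more cells in each library, 16 had a lower Cxcl3 level, 15 of them by 1.5-fold or more. The exceptions were the epithelial-like clusters 10 and 13, at 26.1 against 24.1 and 18.6 against 17.6 CPM, within counting error. The part of free RNA in the low Cxcl3 levels of T/NK-like cells, where the 14 neutrophil markers stood at 0.508% and 0.900% of their neutrophil-like level with Ly6g and Ngp at 0 in the AptCD4-LNT library, was not tested.

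Cxcl2 in macrophage-like cells was 3.56-fold lower (3.49 to 3.64), at 2065 against 7357 CPM, but the clusters did not share the direction. It was lower in cluster 16, at 3254 against 6557 CPM, and in cluster 18, at 4144 against 8240. It was higher in cluster 9, at 1739 against 1260 CPM. In unnamed cluster 21 the level was 3430 against 2149 CPM, but the share of cells with a Cxcl2 UMI went the other way. It was 39.5% (17 of 43 cells) against 77.7%, and 25.6% against 47.1% after thinning to 500 UMIs, so no direction is given for cluster 21. At the AptCD4-LNT mix of clusters the log2 ratio of Cxcl2 in macrophage-like cells was -0.19 in place of -1.83. Cxcl1 behaved likewise. In macrophage-like cells as a whole it was 417 against 605 CPM, with 301 against 121.5 in cluster 9, 957 against 856 in cluster 16 and 452 against 612 in cluster 18. Its log2 ratio of -0.54 became 0.68 at the AptCD4-LNT mix of clusters, so no direction is given for it. Of the 5 genes 3, namely Cxcl2, Cxcl3 and Cxcl5, were called lower and 0 higher in macrophage-like cells, where 33% of 11321 genes were higher and 9.73% lower. Their median log2 ratio was -0.94, beside 0.34 for all genes. The Cxcl5 call, on 51 and 78 UMIs, turned to a ratio of 0.76 at the AptCD4-LNT mix of clusters and 0.90 with the 5 genes among the variable genes, and in cluster 16 Cxcl5 was 40.4 against 4.69 CPM on 36 and 3 UMIs. The median log2 ratio of genes with 100 or more UMIs was 0.32 in macrophage-like and 0.22 in neutrophil-like cells, so ratios relative to other genes were lower by that amount than those given. With those medians set to 0, the 5 genes gave 0 higher and 4 lower in macrophage-like cells, with Cxcl1 added, and 2 and 2 in neutrophil-like cells. All genes then gave 1925 higher and 1891 lower in macrophage-like and 1477 and 1265 in neutrophil-like cells.

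In monocyte-like cells, cluster 15, led by Ccr2 and Ly6c2, the ligands stood closer together between the libraries. Cxcl2 was 4933 against 5639 CPM and Cxcl1 706 against 602. Of 4 measured genes 1, Cxcr2 on 22 and 5 UMIs, was called higher and 1, Cxcl3, lower, against 16.4% and 6.79% of all genes. In T/NK-like cells 2 of 5, Cxcl1 and Cxcl2, were higher and 2, Cxcl3 and Cxcl5, lower, against 18.2% and 10.2%. Neither higher call held, since Cxcl1 turned to -0.21 and -0.23 when cells were thinned to 1000 and 500 UMIs and Cxcl2 to -1.33 with no doublets removed and -0.88 at the expected doublet rate. Cxcl5 there rested on 3 and 21 UMIs, a log2 ratio of -1.47 (-3.86 to 0.27).

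**Figure D3:**
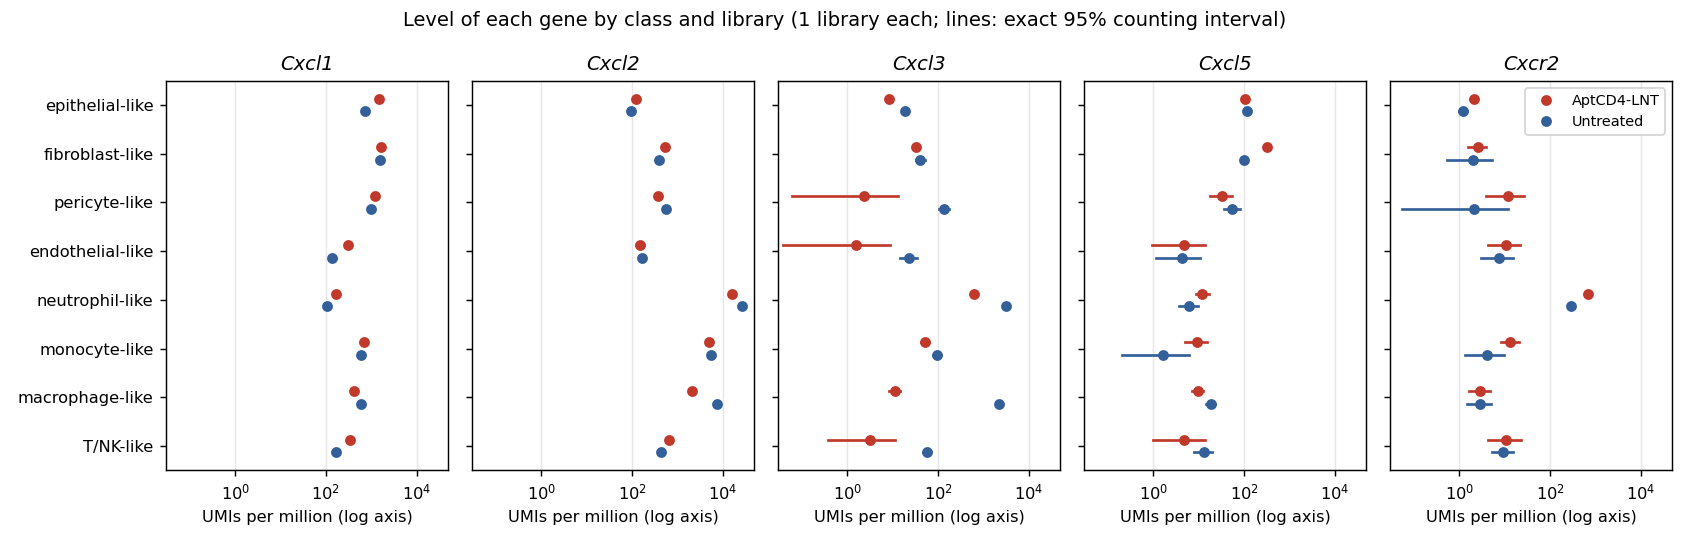
Points give CPM on a log axis for each gene in the 8 classes compared, 1 library each, with exact 95% counting intervals as lines. Cxcr2 stands out in neutrophil-like cells, Cxcl2 in the myeloid classes, and the widest gap between libraries is Cxcl3 in macrophage-like cells (11.0 against 2235).

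Cxcr2, the receptor, marked neutrophil-like cells in both libraries. Its level there was 702 CPM (673 to 731) in the AptCD4-LNT and 292 CPM (272.5 to 312) in the Untreated library, 2.40-fold higher (2.22 to 2.60). In the other classes compared it was between 2.07 and 13.3 CPM in the AptCD4-LNT library and between 1.21 and 9.23 in the Untreated library. A Cxcr2 UMI was found in 54.6% of neutrophil-like cells against 20.99%, and in 26.0% against 12.8% after thinning every cell to 500 UMIs. In epithelial-like cells the thinned shares were 0.0886% and 0.0796%.

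The receptor did not point the same way in all neutrophil-like clusters. In cluster 6 it was higher, with 831 CPM against 544 and a log2 ratio between 0.38 and 0.85. In cluster 8 it was also higher, at 550.3 CPM against 318, but on 42 and 40 UMIs from only 15 and 47 cells. In cluster 7 it was lower, with 195 CPM (162 to 233) against 260.5 (241 to 281) and a log2 ratio between -0.71 and -0.14. In both libraries the Hdc-led cluster 6 thus carried more Cxcr2 than the Stfa2-led cluster 7. At the AptCD4-LNT mix of clusters the log2 ratio of the class was 0.54 in place of 1.27. Clusters 6 and 7 each held most of the class in a different library, so they may be partly that library. A difference in mix and a difference inside clusters, which pointed opposite ways in clusters 6 and 7, could thus not be told apart. Csf3r, which helped to name the class and leads cluster 6, is no independent check of the Cxcr2 difference.

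**Figure D4:**
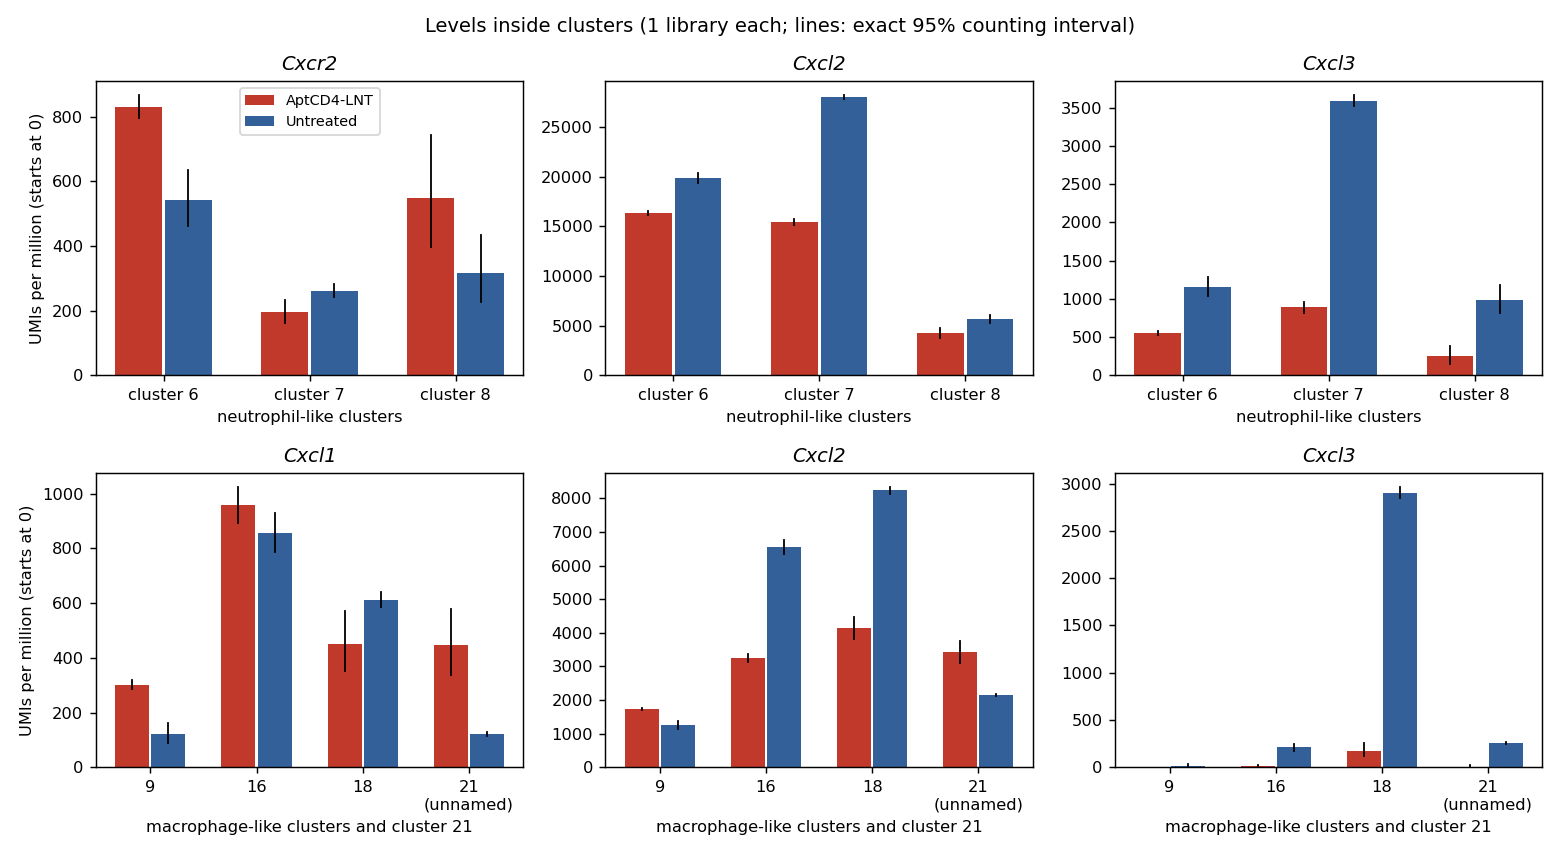
Bars give CPM of Cxcr2, Cxcl2 and Cxcl3 in neutrophil-like clusters 6, 7 and 8 (top) and of Cxcl1, Cxcl2 and Cxcl3 in macrophage-like clusters 9, 16 and 18 and unnamed cluster 21 (bottom), with exact 95% counting intervals. Cxcl3 is lower in the AptCD4-LNT library in each cluster shown, whereas Cxcr2 is higher in clusters 6 and 8 and lower in cluster 7. Cluster 8 holds only 15 AptCD4-LNT and 47 Untreated cells.

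Receptor and ligand were read in the same cells after thinning to 500 UMIs. In the Untreated library Cxcl3 was found in 94 of 380 neutrophil-like cells with a Cxcr2 UMI (24.7%, 20.5 to 29.4) and in 936 of 2597 without one (36.0%, 34.2 to 37.9). Inside cluster 7, which held most of those cells, the shares were 26.3% (21.5 to 31.6) and 38.3% (36.3 to 40.3). Inside cluster 6 they stood in the other order, 17.5% (9.05 to 29.1) of 63 cells and 12.5% (8.26 to 17.9) of 200, with intervals that overlapped. Over all neutrophil-like cells of the AptCD4-LNT library the shares were 9.03% (6.77 to 11.7) and 11.9% (10.4 to 13.6), which overlapped. Cxcl2 was found in 86.5% and 86.1% of AptCD4-LNT neutrophil-like cells with and without Cxcr2, and in 88.7% and 92.4% of Untreated ones. Most neutrophil-like cells with Cxcr2 therefore also held Cxcl2. In neutrophil-like cells 3 of the 5 genes, Cxcl1, Cxcl5 and Cxcr2, were called higher and 2, Cxcl2 and Cxcl3, lower, where 27.3% of 8680 genes were higher and 8.01% lower. The median log2 ratio of the 5 was 0.66, beside 0.23 for all genes. Cxcl1 rested on 525 and 302 UMIs and Cxcl5 on 39 and 18. With no doublets removed Cxcl5 turned to -0.75 and Cxcl2 to 0.07, and thinned to 1000 UMIs Cxcl5 was -0.06.

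Neutrophil-like cells made up 24.7% (23.8 to 25.6) of the AptCD4-LNT and 16.3% (15.8 to 16.9) of the Untreated library. Among the named haematopoietic classes the shares were 57.5% and 54.6%, and with unnamed clusters 17 and 21 counted among them 55.7% and 40.2%. With a filter of 500 genes and 10% mitochondrial UMIs per cell they were 22.2% and 4.98%, on 1793 and 773 cells. The size of the gap thus changed with the denominator and with this filter, whose 2 limits were not varied apart, and no difference in neutrophil number is read from it.

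Relatives of the 5 genes were read whatever their value. Ppbp, a platelet ligand of CXCR2, gave 44 UMIs against 673 over all cells, of which 4 and 237 lay in macrophage-like cells. Pf4, a platelet chemokine also made by macrophages, was 39.5 against 243 CPM over all cells and 576 against 1847 in macrophage-like cells. Cxcl15 gave 3 and 6 UMIs. Mif, a cytokine that can bind CXCR2, was 812 against 1151 CPM. Cxcr1, the gene of a related receptor, was 67.4 against 38.2 CPM in neutrophil-like cells, a log2 ratio of 0.82 (0.48 to 1.16). Cxcr4, which holds neutrophils in the marrow, was 342 against 151.5 CPM there, 2.26-fold higher. Its ligand Cxcl12 was 506 against 344 CPM in fibroblast-like cells. Ackr1, which carries chemokines across vessel walls, was 23.2 against 61.0 CPM in endothelial-like cells, on 15 and 58 UMIs.

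Of 6 other attractant receptors in neutrophil-like cells, 2 were higher and 0 lower, near the 27.3% and 8.01% of all genes. The 2 were the formyl peptide receptors Fpr1, at 280 against 122.5 CPM, and Fpr2, at 368 against 179.5. C5ar1, at 671 against 700.2 CPM, and Ltb4r1, at 165 against 165, were level. Their median log2 ratio of 0.23 was that of all genes, 0.23. For CXCR2 signalling, 6 of 12 genes were higher and 0 lower (median 0.56), where 27.3% of all genes were higher and 8.01% lower, and 5 were higher with scaling to the median ratio. The 6 included Pik3cg, the PI3-kinase of chemokine receptors, at 29.7 against 12.6 CPM, and Rgs2, a brake on G protein signalling, at 383 against 111. Adhesion genes numbered 5 higher and 2 lower of 9 measured (median 0.75), among them Icam1 at 114 against 51.2 CPM and Pecam1 at 10.8 against 35.5. Those counts stood beside the same 27.3% and 8.01%, and were 4 and 2 with scaling to the median ratio.

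Inducers of the ligands did not form 1 pattern. In neutrophil-like cells 4 of 9 measured were higher and 1 lower (median 0.58), beside 27.3% and 8.01% of all genes, and with scaling to the median ratio 2 were higher and 2 lower. Il1b was 17876 against 11951 CPM, and the interleukin 17 receptor gene Il17ra was 173.5 against 75.4. Il1a was the lower one, at 60.0 against 337.5 CPM. It was also lower in macrophage-like cells, at 65.8 against 347 CPM, in fibroblast-like cells, at 3.57 against 22.5, and in epithelial-like cells, at 71.5 against 121. In epithelial-like cells 2 of 11 inducers were higher and 1 lower (median 0.28), beside 10.5% and 6.77%. Tnf was 3.72 against 1.82 CPM there and Tlr2 21.3 against 10.5.

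Growth factors that raise neutrophil output were read in the same way. Csf3, or G-CSF, was 265 against 189.5 CPM in epithelial-like cells, a log2 ratio of 0.48 that was under the size called. Csf2, or GM-CSF, was 27.3 against 8.67 CPM there and gave 70 against 0 UMIs in fibroblast-like cells, at least 5.95-fold higher against a floor of 3 counts. Csf2ra, its receptor gene, gave 0 UMIs in the whole AptCD4-LNT library and 2565 in the Untreated library, where neutrophil-like cells held 489. The partner subunit Csf2rb was 403 against 346 CPM in neutrophil-like cells. The source of a gene that is at 0 in every class of 1 library was not tested, and no difference between the groups is read from Csf2ra.

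The NF-kB arm and the mRNA decay factors that act on the ligands were read in the same classes. In neutrophil-like cells 6 of 9 measured genes were higher and 0 lower (median 0.72), beside 27.3% and 8.01% of all genes. They included Nfkbiz, a cofactor of NF-kB at these promoters, at 558 against 267 CPM, and Zfp36, which speeds decay of such mRNAs, at 1831 against 925. In macrophage-like cells 6 of 9 were higher and 0 lower at a median of 0.65, beside 33% and 9.73% of all genes and their median of 0.34. With scaling to the median ratio those counts became 4 and 0 in neutrophil-like and 2 and 1 in macrophage-like cells. In epithelial-like cells, where Cxcl1 was higher, 4 of 10 were higher and 0 lower, beside 10.5% and 6.77% of all genes. The median was 0.46 beside 0.05 for all genes. There Tnfaip3, a feedback inhibitor, was 174 against 73.05 CPM and Nfkbia, the gene of the NF-kB inhibitor, was 1183 against 794. In fibroblast-like cells 2 of 10 were higher and 0 lower, near the 13.9% and 11.8% of all genes. The 2 were Nfkb1, at 229 against 104 CPM, and Tnfaip3, at 148 against 70.5. The count was 8 of 10 in T/NK-like cells (median 1.03), beside 18.2% of all genes there.

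Immediate early and dissociation stress genes differed beside part of these results. Of 12 such genes 9 were higher and 0 lower in epithelial-like cells, at a median of 0.68, beside 10.5% and 6.77% of all genes, with Atf3 at 533 against 270 CPM. In neutrophil-like cells 7 were higher and 3 lower at a median of 0.69, beside 27.3% and 8.01%, and the count became 4 and 4 with scaling to the median ratio. In macrophage-like cells 1 was higher and 1 lower at a median of -0.09, beside 33% and 9.73%, and with that scaling 1 and 4. In fibroblast-like cells 2 were higher and 1 lower at 0.02, beside 13.9% and 11.8%. In T/NK-like cells, where 8 of 10 NF-kB arm and decay genes were higher, 10 stress genes were higher and 2 lower at a median of 1.16, beside 18.2% and 10.2%. Pericyte-like cells had 5 higher and 0 lower, beside 18.4% and 14.1%. Monocyte-like cells had 2 and 0, beside 16.4% and 6.79%, and endothelial-like cells 0 and 0, beside 9.67% and 11.7%. The part of the stress genes in the ligand levels was not tested.

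**Figure D5:**
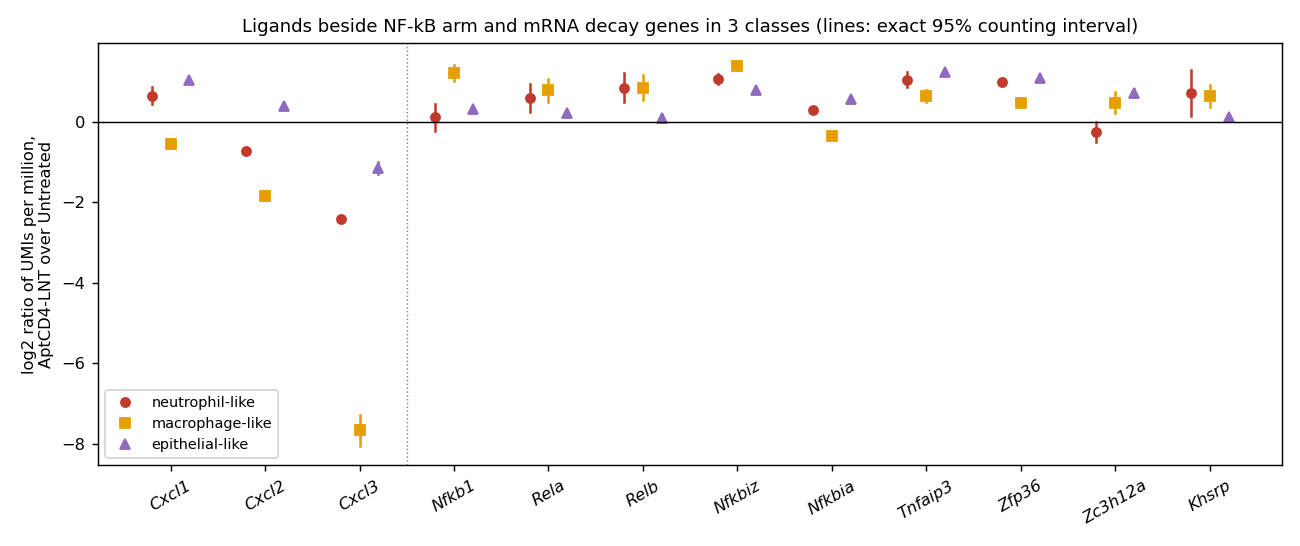
Points give the log2 ratio of CPM, AptCD4-LNT over Untreated, with exact 95% counting intervals, for 3 ligands and for the 9 measured genes of the NF-kB arm and mRNA decay list in 3 classes (Traf3ip2 is left out for low counts in 2 of them). Cxcl3 lies below 0 in all 3 classes, down to -7.67, while Nfkbiz, Relb and Tnfaip3, 3 of the 9 genes, lie above it. The 9 do not all share a direction: with scaling to the median ratio, 2 were called higher and 1 lower in macrophage-like cells.

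The patterns of the genes across clusters were described by Pearson's r of log2(CPM + 1) over the 39 cluster and library pairs with 50 or more cells, among 13949 genes. The points share libraries, depth and cell types, so r is a description. Closest to Cxcl1 were Phlda1 (0.89), Gm45407 (0.81), Wls (0.78), Gpsm2 (0.78) and Errfi1 (0.78). Closest to Cxcl2 were Mcl1 (0.97), Clec4e (0.97), Cd300lf (0.97), Clec4d (0.96) and Ccrl2 (0.96). Cxcl3 came with Ap3s1 (0.85), E230032D23Rik (0.84), Tgm1 (0.84), Fbxl5 (0.84) and Gm43181 (0.83). Cxcl5 came with Sphk1 (0.84), Rab34 (0.82), Clip4 (0.82), Ank3 (0.82) and Osr2 (0.81). Cxcr2 came with Stfa2l1 (0.93), Fpr1 (0.93), Csta3 (0.93), Hdc (0.92) and G0s2 (0.92). Among the 5 genes themselves r was 0.73 for Cxcl1 with Cxcl5, 0.74 for Cxcl2 with Cxcl3 and 0.68 for Cxcl2 with Cxcr2. It was -0.44 for Cxcl1 with Cxcl2. The highest levels of these 2 ligands lay in different clusters, but the split was not clean. Macrophage-like cluster 16 held both, with Cxcl1 at 957 and 856 CPM and Cxcl2 at 3254 and 6557 in the AptCD4-LNT and Untreated libraries.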

How the data were processed

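The deposited matrices hold counts, that is UMI counts per gene and barcode per the file headers, made by the authors with Cell Ranger 7.2.0 on GRCm39 per the submitters' processing notes. The smallest barcode total was 500 UMIs, so emptier droplets were not analysed here. Barcodes under 200 genes or over 20% mitochondrial UMIs were dropped, and Scrublet marked 226 (2.55%) and 1785 (8.93%) barcodes of the AptCD4-LNT and Untreated libraries as doublets, which were removed. With scanpy 1.11.5, 2000 variable genes without the 5 genes, 30 principal components, 15 neighbours and Leiden resolution 1 gave 24 clusters. A cluster was named from at least 3 detected markers, and stayed unnamed where markers of another class led its top 10 genes. UMIs were summed per class and library, and classes with 50 or more cells in each were compared. A gene with 20 or more UMIs was called at 1.5-fold, which marked 89.5% of genes changed 2-fold and 8.55% of unchanged genes on simulated neutrophil-like counts. The simulated counts held counting error only and no spread between tumours or libraries, so 8.55% is not the rate of false calls here. There was 1 library per group, so no test was made and all intervals cover counting error only. The genes, lists and markers were chosen with earlier results of these data known, and the stress list and 5 of the alternatives were added after seeing the data. From the lists, the text names relatives at any value and up to 10 genes with the largest change in neutrophil-like, fibroblast-like and epithelial-like cells, and further ones chosen after their values were seen. Other scalings, filters, doublet rates, resolutions and thinning depths were tried. RefSeq and GENCODE sequences are of GRCm38 and were matched by symbol.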

Additional observations from a re-analysis of the deposited data

How the results depend on the processing

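No paired analysis was possible because each group has 1 library, and leaving out a replicate was not possible for the same reason. All values here are log2 ratios, AptCD4-LNT over Untreated, and the cause of a shift was not tested. Under each alternative run, Cxcl1 stayed higher in epithelial-like cells, Cxcl5 in fibroblast-like cells and Cxcr2 in neutrophil-like cells, the last under 1.5-fold at the AptCD4-LNT mix of clusters, and Cxcl3 stayed lower in neutrophil-like and macrophage-like cells. Leaving out barcodes found in both libraries, an alternative added after seeing the data, moved none of 46 values. The direction of Cxcl2 in neutrophil-like cells did not hold: -0.72 became 0.07 with no doublets removed.

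Over all cells, with the median ratio set to 0, the ratios were 1.03 for Cxcl1, -0.60 for Cxcl2, -2.80 for Cxcl3 and 0.31 for Cxcl5. With each cell weighted equally they were 0.92 for Cxcl1, -0.26 for Cxcl2, -2.34 for Cxcl3 and 1.80 for Cxcr2. Thinned to 1000 UMIs they were 0.82 for Cxcl1, 0.63 for Cxcl2, -1.69 for Cxcl3 and 2.91 for Cxcr2. Thinned to 500 UMIs, an alternative added after seeing the data, they were 0.93, -0.26 and -2.36 for Cxcl1 to Cxcl3, 0.49 for Cxcl5 and 1.75 for Cxcr2. With no doublets removed they were 1.13 for Cxcl1, -0.52 for Cxcl2 and 0.44 for Cxcl5, and with doublets at the expected rate -0.61 for Cxcl2 and -2.81 for Cxcl3. The stricter cell filter gave 1.09 for Cxcl1, -0.03 for Cxcl2, -2.39 for Cxcl3 and 2.27 for Cxcr2.

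In epithelial-like cells Cxcl1 (1.06) was 1.01 with median scaling, 1.16 with no doublets removed, 1.07 with the stricter filter, 1.10 at resolution 0.5 and 1.08 at resolution 2. It was 1.10 with the 5 genes among the variable genes, 1.11 with classes per cell and, in alternatives added after seeing the data, 1.10 with unnamed clusters given to their best class and 0.83 at the AptCD4-LNT mix of clusters. Cxcl5 there (-0.13) had no stable direction. It was -0.18 with median scaling, -0.03 thinned to 1000 UMIs, 0.00 thinned to 500, 0.03 with no doublets removed, -0.06 at the expected rate, -0.04 with the stricter filter, -0.03 at resolution 0.5, -0.07 at resolution 2, -0.04 with the genes among the variable genes, 0.02 with classes per cell and -0.03 with unnamed clusters given away. In fibroblast-like cells Cxcl5 (1.72) was 1.44 at the expected doublet rate, 2.47 at resolution 0.5, 2.01 with classes per cell, 2.47 with unnamed clusters given away and 2.11 thinned to 500.

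In macrophage-like cells Cxcl2 (-1.83) was -2.16 with median scaling, -1.76 thinned to 1000, -0.59 with no doublets removed, -0.91 at the expected rate, -0.77 with the stricter filter, -0.56 at resolution 0.5, -0.90 at resolution 2, -1.26 with the genes among the variable genes, -0.35 with classes per cell, -0.85 with unnamed clusters given away and -0.19 at the AptCD4-LNT mix. Cxcl3 there (-7.67), in the same order with equal cell weights in place of median scaling, was -7.19, -7.12, -6.00, -7.06, -6.30, -5.39, -6.47, -5.85, -5.02, -6.36 and -3.58, and -7.24 thinned to 500.

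In neutrophil-like cells Cxcl2 was -0.94 with median scaling, -0.75 with equal cell weights, -0.59 and -0.74 thinned to 1000 and 500, -0.50 with the stricter filter, -0.42 at resolution 2, -0.70 with classes per cell and -0.41 at the AptCD4-LNT mix. Cxcl3 (-2.41) was -2.63 with median scaling, -1.60 with no doublets removed, -2.28 with the stricter filter, -2.12 at resolution 2, -2.51 thinned to 500 and -1.42 at that mix. Cxcr2 (1.27) was 1.05 with median scaling, 1.98 with no doublets removed, 0.97 at resolution 2 and 0.54 at that mix. The neutrophil-like share of cells (0.59) was 0.49 with no doublets removed, 2.15 with the stricter filter, 1.21 at resolution 2, 0.07 among named haematopoietic classes and, in an alternative added after seeing the data, 0.47 with unnamed clusters 17 and 21 counted among them.

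Directions turned for low levels. Cxcl1 in T/NK-like cells was -0.21 and -0.23 thinned to 1000 and 500. Cxcl2 there was -1.33 with no doublets removed, -0.88 at the expected rate and -0.34 at resolution 2. Cxcl5 in macrophage-like cells was 0.36 with no doublets removed, 0.26 with the stricter filter, 0.17 and 0.04 at resolutions 0.5 and 2, 0.90 with the genes among the variable genes, 0.08 with unnamed clusters given away and 0.76 at the AptCD4-LNT mix. Cxcl5 in monocyte-like cells was -1.16 with classes per cell, and in neutrophil-like cells -0.06 thinned to 1000 and -0.75 with no doublets removed.

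Depth limits the low counts: a class with 0 UMIs was set to a floor of 3 counts, and 1 library per group leaves the spread between tumours unmeasured.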
